A study of Zea mays with 9 samples.

Results

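The genes described here are those whose transcripts stood highest in unpollinated maize kernels. They were chosen by their level v, the reads counted in a gene model as TMM-scaled CPM (CPM is a share of the library's reads, and TMM scaling corrects it for differences in library composition). A member had its highest v of 8 stages at 0 days after pollination (DAP), a v of at least 10 there, and a value of v + 1 at least 4 times that of its median over the 8 stages. Of 110028 gene models, 44687 were detected, that is, had a v of at least 1 in a library, and 184 were members, which is 0.412% of those detected. The lipoxygenase model GRMZM2G015419 met the same values and was left out by the rule. With the peak placed at another stage, the same rule was met by 85 models at 2 DAP, 48 at 3 DAP, 75 at 4 DAP, 344 at 6 DAP, 308 at 8 DAP, 370 at 10 DAP and 710 at 12 DAP.

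All samples came from the inbred line B73, grown in a greenhouse. Whole kernels were taken at 0 DAP and at 2, 3, 4 and 6 DAP, and endosperm cut free of embryo and pericarp was taken at 8, 10 and 12 DAP. The labels give the first age as 0 DAP, read here as unpollinated, although the growth protocol speaks of self-pollinated ovules for all samples. Each stage was 1 biological sample and 1 library, except that the 0 DAP RNA was sequenced as 2 technical replicates, here called libraries a and b, which were summed to 1 stage. No difference between stages therefore has a biological replicate, no p-value is given, and the intervals below cover counting error only.

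The unpollinated maize kernel is an ovary with a single ovule, in which the nucellus and integuments surround the embryo sac and the ovary wall will become the pericarp. After fertilisation the endosperm grows at the expense of the nucellus. In such bulk samples, fewer cells of a type and less RNA per cell cannot be told apart.

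The libraries held 17716275 to 40145710 counted reads. A v of 10 stood for 286 and 395 reads in the 0 DAP libraries a and b, for 547 at 6 DAP and for 56.8 at 12 DAP, so the same v rested on the fewest reads at 12 DAP. Of the ovule and floral organ markers, 4 models were matched by name: zag1 and zag2, which are MADS-box floral and ovule genes, had v of 60.7 and 329 at 0 DAP, zmm8 had 278 and zmm7 had 465. Their summed v, with zmm8 entered a second time under the name zmm14, was 1411 at 0 DAP, 1590, 1613, 1823 and 1981 at 2, 3, 4 and 6 DAP, and between 119 and 261 in endosperm. This sum was thus higher in each later whole-kernel library than at 0 DAP. Of the single markers, zmm8 was lower at 2 and 3 DAP (250 and 268) and zag1 at 6 DAP (57.8). The summed v of the members was lower at every later stage, which the membership rule fixes, so setting it against the markers carries no weight. The matched pollen markers, the profilin genes pro1 and pro2, had v of 0.0441 and 0 at 0 DAP. The matched embryo sac markers es1, es2 and es4 had 0.235, 0.0441 and 0.0441 there and 0 at all later stages. The 6 endosperm storage markers had a summed v of 107 at 0 DAP and between 104 and 121 at 2, 3 and 4 DAP, of 13.6 at 6 DAP and of 4116 at 8 DAP. Storage transcripts were thus counted in the unpollinated library, and their part in the members' values was not tested.

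Over the 184 members the median v was 26 at 0 DAP, 5.87 at 2 DAP, 6.11 at 3 DAP, 6.78 at 4 DAP, 2.89 at 6 DAP, 1.88 at 8 DAP, 1.60 at 10 DAP and 1.41 at 12 DAP. Single members ranged from 10 to 630 at 0 DAP. Together they took 1.48% of reads at 0 DAP, between 0.430% and 0.470% at 2 to 4 DAP, 0.168% at 6 DAP and 0.0119% at 12 DAP. The median thus had its steepest drops from 0 to 2 DAP and from 4 to 6 DAP. The membership rule asks for the highest v at 0 DAP and a low median, so it favours a drop after 0 DAP. The step from 4 to 6 DAP rests on 1 library at each stage. A share of reads, unlike v, is not corrected for composition, and the TMM factor of the 12 DAP library was 0.156, against 1.36 to 1.61 in the kernel libraries.

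**Figure D1:**
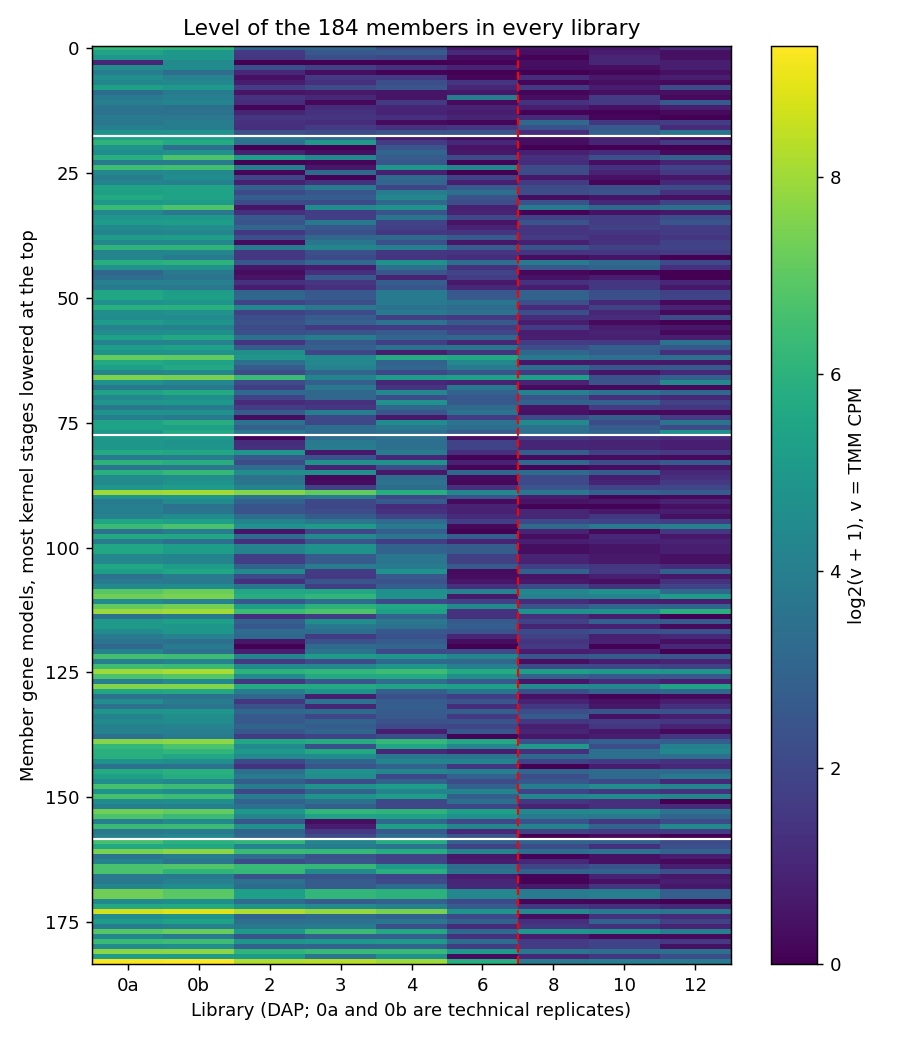
Level of each of the 184 members as log2(v + 1) in the 9 libraries, with 1 row per gene model; a and b are the technical replicates of 0 DAP and the dashed line parts whole kernels from dissected endosperm. From the top, white lines part the 18 members lower at all of 2, 3 and 4 DAP from the 60 lower at 2 of these stages. Below them lie the 81 lower at 1 and the 25 lower at none. Among the other models with a v of at least 10 at 0 DAP the shares were 0.174%, 0.287%, 2.25% and 97.3%. The columns of both 0 DAP libraries are the brightest in nearly every row.

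A gene was called lower at a stage when v + 1 was at least 4 times smaller than at 0 DAP, the 0 DAP v was at least 10, and the exact 95% interval of the ratio excluded 1. By this rule of size, 104 members were lower at 2 DAP (0.577% of all detected models were), 77 at 3 DAP (0.539%) and 74 at 4 DAP (0.445%). At 6 DAP 155 members were lower (1.21% of detected models), at 8 DAP 169 (2.93%), at 10 DAP 178 (3.43%) and at 12 DAP 176 (4.39%). Because the membership rule used these same contrasts, the counts describe the members and support nothing. The median of the ratio of v + 1 at 0 DAP to that at the later stage was 4.55 at 2 DAP, 3.51 at 3 DAP, 3.35 at 4 DAP, 6.91 at 6 DAP, 9.53 at 8 DAP and 10.8 at 12 DAP. Among the 13251 other models with a v of at least 10 at 0 DAP, the corresponding median log2 ratio lay between -0.01 and 0.07 at 2 to 6 DAP and was 0.30 at 12 DAP.

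**Figure D2:**
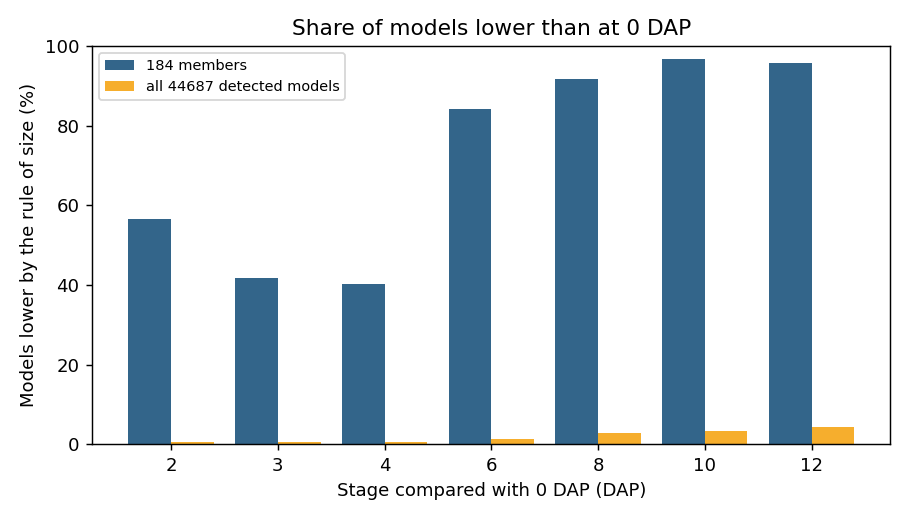
Share of the 184 members (blue) and of all 44687 detected models (yellow) that were lower than at 0 DAP by the rule of size, by stage. The members' share goes from 56.5% at 2 DAP down to 40.2% at 4 DAP and up to 84.2% at 6 DAP, against 0.577% to 4.39% of all detected models; the membership rule fixes much of this difference.

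The endosperm stages weighed on membership. All of 8, 10 and 12 DAP were lower in 159 members (1.97% of detected models), and 47 members (25.5%) had a v under 1 at all 3 of these stages, against 0.641% of the other models with a v of at least 10 at 0 DAP. When the rule was applied to the 5 whole-kernel stages alone, 98 models met it, of which 64 were among the 184 members. Scaled by library totals instead of TMM, 482 models met the rule, including all 184.

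Only 11 members carried a usable gene name, and 93 matched a RefSeq record at all (50.5%, against 36% of detected models and 57.9% of the other models with a v of at least 10 at 0 DAP). Of the matched members, 87 were annotated as protein coding, 3 as lncRNA and 2 as transcribed pseudogenes, and 1 matched records of both of the last-named and coding kinds. Roles can be given for the named members alone, and the rest are described by identifier.

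Among the named members with a receptor or transport role, ERECTA (GRMZM5G809695) was the most abundant. In Arabidopsis ERECTA is a receptor-like kinase of the cell surface that acts in organ growth and stomatal patterning. Its v was 417 and 475 in the 0 DAP libraries a and b, then 301, 229 and 177 at 2, 3 and 4 DAP, 27.8 at 6 DAP, and 20.1, 13.8 and 11.6 at 8, 10 and 12 DAP. The decline was gradual to 4 DAP, where the ratio to 0 DAP was 2.55 (95% interval 2.47 to 2.62), and ERECTA was first called lower at 6 DAP, by 16.2-fold (95% interval 15.4 to 17.1). It did not meet the rule in kernel stages alone. The same held for HAK25, TIP4-1, NAC49, igl1, TIFY25 and cda2, which are described below. The other named members, ARF4, COL5, dxs2 and fad8, met it there.

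HAK25 (GRMZM2G375116) belongs to a family of potassium transporters. It had a v of 192 and 194 in the 0 DAP libraries, 52.4, 51.4, 43.3 and 37.4 at 2, 3, 4 and 6 DAP, and 21.5, 19.7 and 40.3 at 8, 10 and 12 DAP. The largest difference between neighbouring stages lay between 0 and 2 DAP, HAK25 was called lower from 4 DAP on (4.45-fold there, 95% interval 4.20 to 4.72), and its 12 DAP level was near that of 4 DAP. TIP4-1 (GRMZM2G103945, also tip4a) is a tonoplast aquaporin, a water channel of the vacuole membrane. Its v was 28 and 29.6 in libraries a and b, 11.2 and 13.2 at 2 and 3 DAP, 3.00 and 4.17 at 4 and 6 DAP, and 0.627, 0.126 and 0.176 at 8, 10 and 12 DAP. TIP4-1 was lower from 4 DAP on, and the 10 DAP ratio of 230 rests on 2 reads (95% interval 63.6 to 1901).

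Of the named transcriptional regulators, COL5 and NAC49 were first called lower at 2 DAP and ARF4 at 3 DAP. ARF4 (GRMZM2G034840), an auxin response factor, had the largest ratio of v + 1 at 0 DAP to the median, 21.5. Its v was 36.6 and 35.8 in the 0 DAP libraries, 11 at 2 DAP and 8.15 at 3 DAP, and then between 0.261 and 0.818 at every stage from 4 to 12 DAP. From 0 to 3 DAP it fell 4.43-fold (95% interval 3.91 to 5.04), and from 0 to 4 DAP 56.4-fold (95% interval 36 to 93.8). Of the 42 detected genes of the auxin list, ARF4 was the only member, 6 were highest at 0 DAP, none was lower at 2 DAP and 3 were higher there. As a background for this list and those below, 269 of the 1949 detected models with a name were highest at 0 DAP. At 2 DAP 16 of these 1949 models were lower and 11 higher.

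COL5 (GRMZM2G075562) is a CONSTANS-like gene, of a zinc finger family with roles in light and photoperiod responses. Its v was 26.6 and 25.7 in libraries a and b, 4.02, 3.53, 4.28 and 4.48 at 2, 3, 4 and 6 DAP, 1.25 at 8 DAP, and 6.23 and 11.4 at 10 and 12 DAP. COL5 was lower at every stage from 2 to 8 DAP, by 6.50-fold at 2 DAP (95% interval 5.41 to 7.87), and was not called lower at 10 or 12 DAP. The 8 detected models of the clock and light list include toc34, toc34B and a model named elf*, which are matched by letters and are not clock genes. The others were GI, a clock gene, with v of 232 at 0 DAP and between 202 and 265 at 2 to 6 DAP, PRR59 with 10.8 and between 7.66 and 9.51, conz1 with 74.6 and between 22.7 and 48.3, and PIF4, which stayed under 1. None of these was called lower at 2 DAP. The hour of sampling is not given in the sources used here.

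NAC49 (GRMZM2G347043, also SNAC1) is a NAC transcription factor. It had 52.1 and 59.9 in libraries a and b, 10 at 2 DAP, 25.7 at 3 DAP, 18.6 and 15.4 at 4 and 6 DAP, and between 7.21 and 8.80 in endosperm. It was lower at 2 DAP by 5.66-fold (95% interval 5.04 to 6.38), was not called lower at 3, 4 or 6 DAP, and did not meet the membership rule on library a alone. Of the 173 detected genes of 8 transcription factor families found by symbol, it was the only member, and 35 were highest at 0 DAP.

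The next 4 named members act in indole, isoprenoid, fatty acid and jasmonate pathways. The gene igl1 (GRMZM2G046191) encodes the maize indole-3-glycerol phosphate lyase that releases free indole, and dxs2 (GRMZM2G493395) encodes a 1-deoxy-D-xylulose 5-phosphate synthase of the plastid isoprenoid pathway. The product of fad8 (GRMZM2G074401) is a plastid fatty acid desaturase that forms linolenic acid, the precursor of jasmonate, and TIFY25 (GRMZM2G116614, also ZIM28) is of the TIFY family, which includes the JAZ repressors of jasmonate signalling.

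The v of igl1 was 38 and 49.2 in libraries a and b, then 5.53, 16.4, 7.42 and 13.1 at 2, 3, 4 and 6 DAP and 9.41, 4.78 and 5.28 at 8, 10 and 12 DAP. For dxs2 it was 40.9 and 43.2, then 6.42, 13.1, 2.87 and 5.36, and between 3.34 and 3.90 in endosperm. TIFY25 had 26.6 and 25.6, then 5.73, 14.9, 4.49 and 10.7, and between 0.176 and 0.366 in endosperm. All 3 genes had a higher level at 3 and at 6 DAP than at 2 and at 4 DAP or, for dxs2 at 6 DAP, than at 4 DAP. At 2 DAP igl1 was lower by 8.05-fold (95% interval 6.89 to 9.46), dxs2 by 6.58-fold (95% interval 5.69 to 7.65) and TIFY25 by 4.55-fold (95% interval 3.89 to 5.34), whereas none of the 3 was called lower at 3 DAP. By contrast fad8 had 41.8 and 39 in the 0 DAP libraries, 6.25, 9.27, 12.2 and 9.13 at 2, 3, 4 and 6 DAP, and 10.6, 5.66 and 3.52 at 8, 10 and 12 DAP, a course without this alternation.

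The alternation was looked for after these values were seen, by asking that v + 1 at 3 DAP be at least 1.5 times that at 2 and at 4 DAP, and at 6 DAP at least 1.5 times that at 4 DAP. It was met by 9 members (4.89%), by 1.86% of all detected models and by 0.875% of the other models with a v of at least 10 at 0 DAP. The 9 include igl1, dxs2 and TIFY25, whose values prompted the criterion, so the members' share is a description and not a test. The clearest case without a name was GRMZM2G002555, with 12.8 and 12.8 in libraries a and b, 2.30 at 2 DAP, 12.2 at 3 DAP, 1.65 at 4 DAP, 11.6 at 6 DAP and at most 0.209 in endosperm. GRMZM2G018424 followed the left-out GRMZM2G015419 (lox10) with a ratio of lox10 to it of 1.00 to 1.22 at every stage, and whether they count the same reads was not tested. With 1 sample per stage, a difference between single kernel stages cannot be told apart from a difference between the samples taken.

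In the list of lipoxygenase and jasmonate genes, 31 were detected, 8 were highest at 0 DAP, and TIFY25 and the left-out lox10 were the 2 lower at 2 DAP. Its median log2 ratio of v + 1 at 0 DAP to the stage median was 0.42, against 0.01 over all detected models. Members of the list that peaked later included lox1, with a v of 57.5 at 0 DAP and 210 at 6 DAP, and aos1, with 28.4 and 135. The remaining named member, cda2 (GRMZM2G008216), is a cytidine deaminase gene. Its v was 58.5 and 47.3 in libraries a and b, 21.1 and 22.5 at 2 and 3 DAP, 11.8 and 11.2 at 4 and 6 DAP, and 8.15, 9.50 and 9.67 in endosperm. On library b alone neither cda2 nor fad8 met the membership rule.

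**Figure D3:**
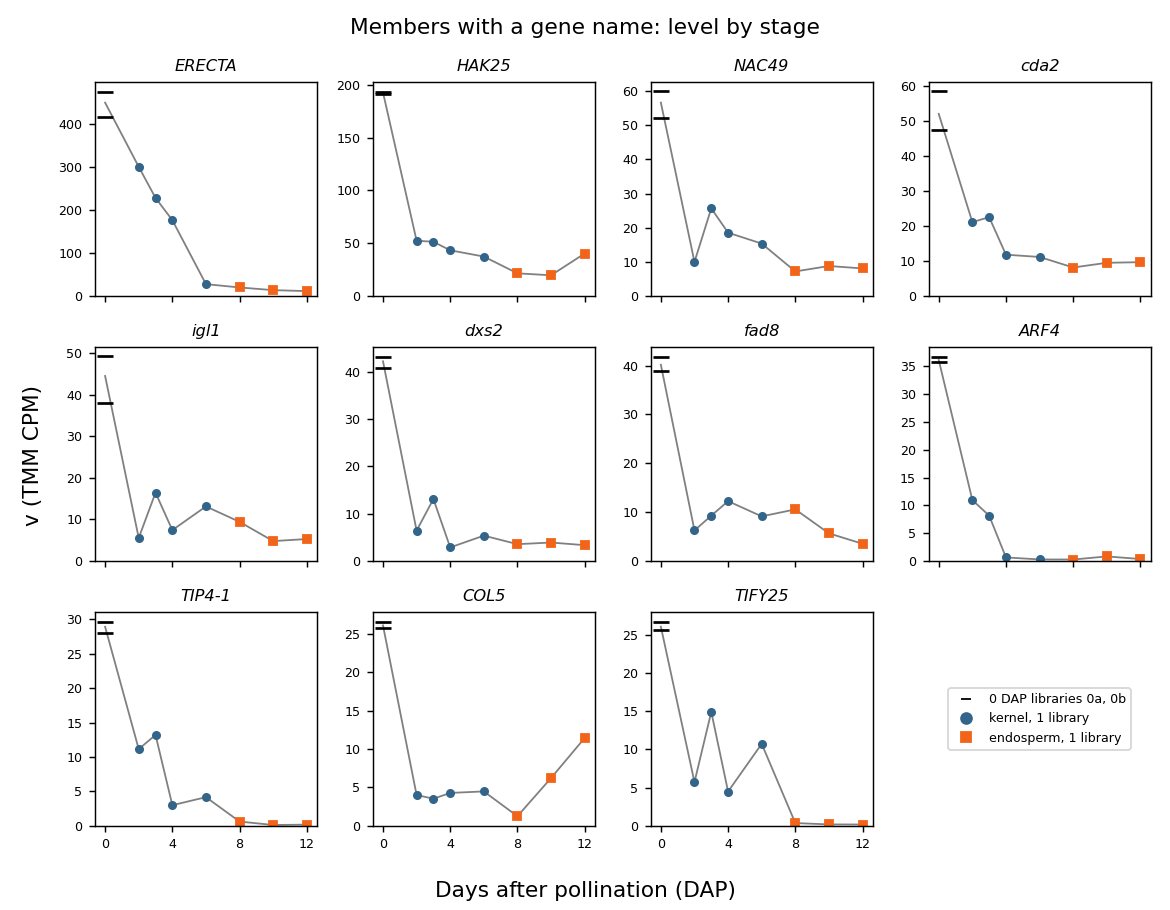
Level v of the 11 named members by stage, on linear axes that start at 0; black bars are the 0 DAP libraries a and b, circles are whole kernels and squares dissected endosperm, each 1 library without a replicate. Every panel is highest at 0 DAP; ERECTA falls gradually from 301 at 2 DAP to 27.8 at 6 DAP, while igl1, dxs2 and TIFY25 are higher at 3 DAP than at 2 and 4 DAP, and COL5 reaches 11.4 at 12 DAP.

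Of the 14 gene lists searched by symbol, 5 held a member and 9 held none. All lists were filled by letters, as that of clock and light was, so each can hold genes of other pathways. Members were 0.412% of detected models and 11 of the 1949 detected models with a name. At such a share most lists of this size would hold none, so an empty list says little about its genes. Lists without a member were those of sucrose and carbohydrate mobilisation (17 detected genes), abscisic acid and dehydration (44), ethylene and senescence (12), gibberellin, cytokinin and brassinosteroid (27), defence and protease inhibitors (23), flavonoids and phenylpropanoids (16), cell wall (28), photosynthesis (9) and cell cycle and DNA replication (26). The list of sulphur, nitrogen and ion transport held HAK25 and TIP4-1 among 49 detected genes, none of which was lower at 2 DAP. In the sucrose list 2 genes were lower at 2 DAP and 1 was higher. Those lower were sus2 (GRMZM2G318780), with a v of 177 at 0 DAP and 9.81 at 2 DAP, and sut1, with 23.1 and 4.02. Both were highest at 10 DAP, with 476 and 31.6, and the rule also leaves sus2 out by name. List medians of the log2 ratio ranged from -0.16 to 0.42. Highest at 0 DAP were 15% of detected models and 13.8% of those with a name.

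Of the members without a name, GRMZM2G029219 had the highest level. It had v values of 608 and 645 in libraries a and b, 295, 323 and 252 at 2, 3 and 4 DAP, 58.1 at 6 DAP and between 13.7 and 14.9 in endosperm. Like ERECTA it was called lower from 6 DAP on, by 10.8-fold there (95% interval 10.5 to 11.2), and it fell short of the membership rule on library a alone. AC186231.4_FG002 declined in the same order, with 254 and 268 at 0 DAP, 194, 137 and 57.8 at 2, 3 and 4 DAP, 19 at 6 DAP and 5.63 at 12 DAP. In all, 25 members (13.6%) were lower at none of 2, 3 and 4 DAP. The share was 97.3% among the other models with a v of at least 10 at 0 DAP. For a member lower at none of them, the rule on the median requires a low level at each of 6, 8, 10 and 12 DAP.

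The other members of the 10 highest were GRMZM2G077809 (v of 270 at 0 DAP and 64.1 at 2 DAP), GRMZM2G063679 (208 and 67.5), GRMZM2G145972 (207 and 47.1), GRMZM2G166159 (196 and 80.8) and GRMZM2G123896 (173 and 81.7), beside GRMZM2G377539, described below. GRMZM2G077809 and GRMZM2G145972 were called lower at 2 DAP, by 4.22-fold (95% interval 4.03 to 4.43) and 4.39-fold (95% interval 4.16 to 4.64). GRMZM2G123896 was not called lower until 3 DAP, where its v was 17.7. Above a v of 100 at 0 DAP stood 20 members, and 38 lay under 15.

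Members lower at all of 2, 3 and 4 DAP numbered 18 (0.0917% of detected models were), and 13 of them were lower at all 7 later stages (0.0291%). The membership rule takes in any model that is lower at all 7, so that count describes the rule's own group. The most abundant was GRMZM2G063431, with 71.8 and 66 in libraries a and b, 7.24, 7.51 and 3.64 at 2, 3 and 4 DAP, and between 0.418 and 1.23 from 6 DAP on. It fell 9.45-fold by 2 DAP (95% interval 8.25 to 10.9) and 129-fold by 6 DAP (95% interval 89.6 to 193). GRMZM2G021706 had 40.4 and 30.7 at 0 DAP and 1.91, 4.80, 5.50 and 1.23 at 2, 3, 4 and 6 DAP. GRMZM2G143328 had 28.5 and 29.7, then 1.81, 3.74, 3.00 and 0.238. GRMZM2G136970 had 22.6 and 22.4, then 3.88, 2.41, 1.52 and 0.878. Over the 13 members no value after 0 DAP exceeded 7.51, so their later levels were all below their levels in both 0 DAP libraries, with the exception of GRMZM2G385818 in library a. GRMZM2G047851 and GRMZM2G007659 match the same RefSeq record, LOC100382678, and were counted separately.

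Members with a large ratio to the median did not all share one course. GRMZM2G066428 (ratio 19.1) had 66.2 and 52.5 in libraries a and b, 10.7 at 2 DAP, 31.9 at 3 DAP, 2.09 at 4 DAP and at most 2.11 later, and 3 DAP was the 1 stage where it was not called lower. GRMZM2G118090 (ratio 13.99) had 22.4 and 25.6, then 0.823 and 0.265 at 2 and 3 DAP, 7.29 at 4 DAP and at most 1.19 later. GRMZM2G000281 (ratio 12.6) had 56.3 and 106 in the technical replicates, then 35.4, 19 and 5.33 at 2, 3 and 4 DAP and at most 6.33 later. Its level at 2 DAP lay below both 0 DAP libraries without a call.

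Several members lost and regained reads from 1 kernel stage to the next. A dip was defined, after the values were seen, as a stage lower by the rule of size than both of its neighbouring stages. Dips at 2 DAP were found in 8 members (4.35%, against 0.143% of detected models), at 3 DAP in 6 (0.137%), at 4 DAP in 1 (0.0582%) and at 6 DAP in 3 (0.19%). Among the other models with a v of at least 10 at 0 DAP the shares were 0.423%, 0.287%, 0.0755% and 0.581%, and the members' shares at 4 and 6 DAP were 0.543% and 1.63%. The dip at 2 DAP involves the 0 DAP contrast that the membership rule used. Those at 3, 4 and 6 DAP do not, although the rule used these stages through the median.

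At 3 DAP GRMZM2G038761 had 17 reads and a v of 0.500, between 14.7 at 2 DAP and 29.1 at 4 DAP, after 84.8 and 90.7 in the 0 DAP libraries. GRMZM2G009601 had 0.618 there from 21 reads, between 25.2 and 38.4, and GRMZM2G400092 had 0.500, between 28 and 14.1. The others were GRMZM5G823306 (3.91), GRMZM2G396435 (2.09) and GRMZM2G396434 (0.235). All 6 lacked a RefSeq record, whereas the members with a dip at 2 DAP were 4 with a record and 4 without, those at 6 DAP 2 and 1, and the 1 at 4 DAP had one. The level at 4 DAP was above that at 3 DAP in all 6 by the definition of a dip, and in 4 of them also above that at 2 DAP.

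At 2 DAP GRMZM2G122807 had 14 reads and a v of 0.461, after 80.1 and 104 at 0 DAP and before 22.4 and 27 at 3 and 4 DAP. It fell again to 0.805 at 6 DAP and had 13.8 at 8 DAP. GRMZM2G434252 had 3.46 at 2 DAP, 26.5 at 3 and 4 DAP and 0.805 at 6 DAP. GRMZM2G368222 followed the same course, with 30.3 and 32.7 in libraries a and b, 0.0987 at 2 DAP from 3 reads, 8.62 and 10.5 at 3 and 4 DAP and 0.348 at 6 DAP, although its 3 DAP level did not reach the minimum of 10. These 3 models were low at 2 and 6 DAP and higher at 3 and 4 DAP.

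At 6 DAP GRMZM2G377539 had a v of 1.52, between 39 at 4 DAP and 26.8 at 8 DAP, after 243 and 260 in the 0 DAP libraries, and it reached 58.6 at 12 DAP. GRMZM5G859148, which RefSeq annotates as transcribed pseudogenes, had 0.604 there, between 26.8 and 15.9, after 158 and 176. The ratio of the first to the second was between 1.45 and 1.69 at every stage but 6 DAP, where it was 2.52, and whether they share reads was not tested. GRMZM2G380297 had 0.165 at 6 DAP, 13.3 at 4 DAP and 8.36 at 8 DAP, after 81.1 and 99.9, and missed the definition because its 8 DAP level was under 10. The 6 DAP library was also the one in which the summed endosperm storage markers were lowest, at 13.6. Whether the low values have to do with that library was not tested.

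**Figure D4:**
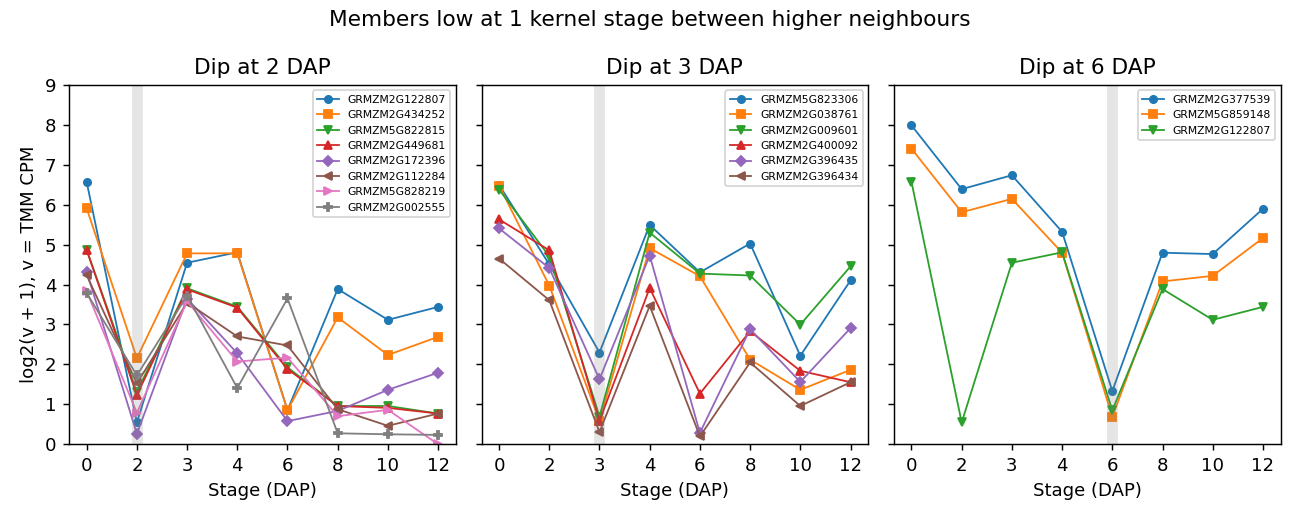
Level as log2(v + 1) by stage for the members with a dip at 2 DAP (8 models), 3 DAP (6) and 6 DAP (3), 1 line per gene model, with the stage of the dip shaded. Each line drops at the shaded stage and is higher at the stage before and after, as in GRMZM2G038761 with 14.7, 0.500 and 29.1 at 2, 3 and 4 DAP.

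The direction of later changes differed from step to step. From 4 to 6 DAP 18 members were lower (9.78%, against 0.499% of detected models) and 2 higher (0.792% of detected models). From 6 to 8 DAP, where dissected endosperm replaced the whole kernel, 10 were lower (5.43%, against 3.21%) and 3 higher (1.63%, against 1.67%). From 2 to 3 DAP 8 members were higher (0.347% of detected models) and 10 lower (0.322%), and from 3 to 4 DAP 8 were higher (0.412%) and 5 lower (0.233%). From 8 to 10 DAP none was higher (0.897%) and 3 were lower (0.68%), and from 10 to 12 DAP 1 was higher (0.667%) and none lower (0.51%). Members are low at most of these stages by the rule, and a higher v of at least 10 was needed for a call.

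The stage that came second to 0 DAP was 3 DAP in 66 members, 4 DAP in 62 and 2 DAP in 41, and a stage from 6 DAP on in the others. The level at 3 DAP was above that at 2 DAP, by any amount, in 114 of the 184 members. No share over all detected models was computed for these counts, so they cannot be read as particular to the members. GRMZM2G080252 came nearest to a second maximum in kernels, with 13.3 and 15.5 in the 0 DAP libraries, 14.1 at 6 DAP and at most 2.08 at every other stage.

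Levels returned in endosperm in 11 members (5.98%, against 6.9% of detected models). For a return, v had to be at least 10 at 8, 10 or 12 DAP. In addition, v + 1 had to be at least 4 times its lowest kernel value of 2 to 6 DAP. The criterion asks for no level at 0 DAP, so over detected models it can also take in genes first seen in endosperm. The membership rule keeps a member's endosperm levels from exceeding its 0 DAP level. The shares of members and of detected models therefore do not show whether a return was more or less common among members. The 11 members are listed here by level: GRMZM2G377539, GRMZM5G859148, GRMZM2G122807, GRMZM2G380297, GRMZM5G823306, GRMZM2G009601, GRMZM2G168877, GRMZM2G050561, GRMZM2G315137, GRMZM2G035134 and GRMZM2G074965. GRMZM2G035134 had 26.2 and 18.8 in libraries a and b, 0.896 at 6 DAP, 0.836 at 8 DAP, 4.21 at 10 DAP and 20.2 at 12 DAP, and was the member higher at 12 than at 10 DAP. GRMZM2G168877 had 59.3 and 70.5 at 0 DAP, 30.2 and 50.2 at 2 and 3 DAP, 1.05 at 4 DAP, 0.677 at 6 DAP and 19.5 at 12 DAP. By library totals 6 members returned.

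The technical replicates show how far 2 libraries of the same RNA set these values apart. The log2 ratio of v + 1 in library b to that in a had a median of 0.05 and an SD of 0.39 over the members, and an SD of 0.36 over the other models with a v of at least 10 at 0 DAP. Within a ratio of 1.5 either way lay 169 of the 184 members, and 1 member differed by the rule of size (0.172% of detected models did). That member was GRMZM2G385818, with 28 reads and a v of 0.980 in library a, 798 reads and a v of 20.2 in library b, and no read at 2, 3 or 4 DAP. Its place among the members rests on library b. GRMZM2G316589 had 27.3 in a and 9.75 in b, no read at 2 DAP, 4.45 at 4 DAP and at most 0.402 elsewhere. On library b alone it fell just short of the level minimum.

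With library a alone as the 0 DAP stage 198 models met the membership rule, 156 of them among the 184 members, and with library b alone 209 did, 163 of them members. Members that met the rule both on library a alone and on library b alone numbered 135, and 49 missed the rule on at least 1 library. A ratio to the median under 4.5 was found in 50 members. Just inside the ratio of 4 were GRMZM2G315137, GRMZM2G173862 and GRMZM2G062066 at 4.00, 4.00 and 4.03, and just outside were GRMZM2G381071, GRMZM5G802403 and GRMZM2G336533 at 3.996, 3.98 and 3.98. Just inside the level of 10 were GRMZM2G080992, AC217553.3_FG008 and GRMZM2G166548 with 10.05, 10.06 and 10.1, and just outside were GRMZM2G353354, GRMZM5G846235 and GRMZM2G046163 with 9.93, 9.86 and 9.55.

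**Figure D5:**
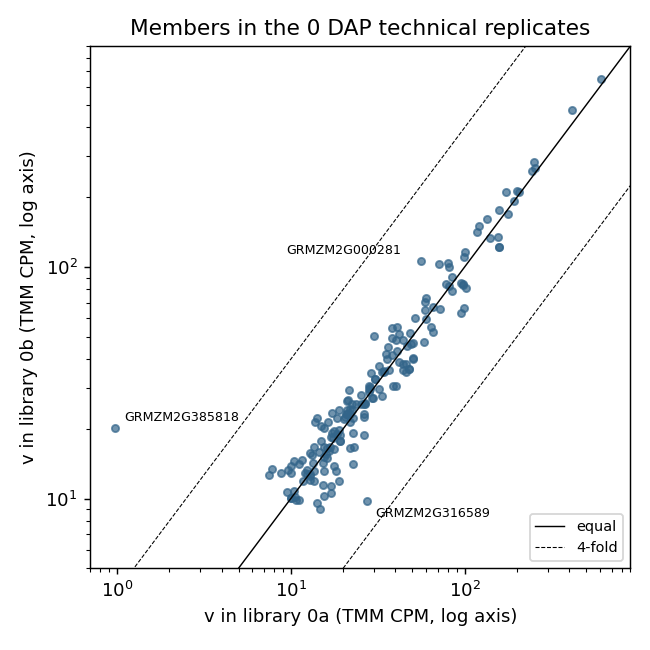
Level v of the 184 members in the 0 DAP libraries a and b, on log axes, with the line of equality (solid) and of 4-fold differences (dashed). Nearly all points lie close to the line of equality; GRMZM2G385818, at 0.980 in a and 20.2 in b, stands beyond the 4-fold line, and GRMZM2G316589, at 27.3 and 9.75, is the lowest against a.

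Some members had near-identical profiles. Pairs with a Pearson r of at least 0.99 on log2(v + 1) over the 9 libraries and the lower level at 0 DAP at least 0.8 times the higher linked 24 members into 12 pairs, which leaves 172 separate profiles. Of these pairs 3 had counts within 2% in every library, among them GRMZM2G357631 and GRMZM5G813011, both with v of 158 and 122 in libraries a and b. GRMZM2G449681 and GRMZM5G822815 had a ratio of 0.911 to 1.00 at every stage, and both are counted among the 8 members with a dip at 2 DAP. Whether such pairs overlap in the genome or share a sequence was not tested, and whether the counting used strand is not stated in the labels.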

How the data were processed

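The values deposited by the authors are raw read counts, whole numbers for 110028 gene models in each of 9 libraries; 33946 models had no read in any. The submitters' processing notes name bedtools alone. Aligner, genome build, annotation and the handling of multiply placed reads: none is given in the sources used here. Per the labels' protocols, mRNA went through poly(A) selection and was sequenced as SOLiD libraries.

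TMM factors came from edgeR 4.0.16 in R 4.3.3, and v is CPM of effective reads. The 0 DAP technical replicates were summed. Counting intervals are exact conditional binomial 95% intervals of the ratio of v, and reads are not independent molecules. Folds are ratios of v, whereas calls use v + 1. Names came from a RefSeq gene table (Zm-B73-REFERENCE-NAM-5.0), used for names and annotation only. It matched 18787 identifiers, and 2289 models had a name that no other model carried. A gene entered a list when its symbol or a synonym held a listed prefix followed by nothing, a digit, punctuation or an ending with a digit. A listed gene can thus be shown under a name without the prefix, as TIFY25 is. The members and lists were chosen with earlier results of these data known. Named are the 10 highest members, the 10 of largest ratio, those with a symbol, those at the thresholds and those that differ between technical replicates; others were named after their values were seen. Motifs and proteins were not analysed here. Counts simulated with known folds at 0 DAP and flat later levels served to check that the code makes the calls. The simulation held no change of tissue or composition, so it does not show how sound the calls are in these data. Alternatives included DESeq2 1.42.0 size factors. Intervals were computed with scipy 1.17.1 under Python 3.11.15, tables were handled with pandas 2.3.3, and figures were drawn with matplotlib 3.10.9.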

Additional observations from a re-analysis of the deposited data

How the results depend on the processing

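The number of models that met the membership rule was 174 with DESeq2 size factors, 172 with upper quartile factors, 183 with thinned counts, 181 with 1 model per group of like counts and between 198 and 209 on 1 technical replicate of 0 DAP. Without the 4, 6, 8, 10 or 12 DAP stage it was 274, 196, 157, 138 and 148, without a level minimum 261, and with a pseudocount of 0.1 it was 248. Over 1.5 times from 184 it moved with library totals (482), a level minimum of 20 (115), a ratio of 2 (1085) or 8 (23), the 5 kernel stages alone (98), and without the 2 DAP (279) or 3 DAP stage (278). The further results hold the 184 members fixed. A level minimum of 20 left 59, 46, 43, 99, 106, 111 and 109 of them lower at 2, 3, 4, 6, 8, 10 and 12 DAP. With a ratio of 8 these were 30, 23, 20, 71 and 112 up to 8 DAP, and with a ratio of 2 they were 164, 159 and 164 up to 4 DAP. Members lower at all later stages numbered 24 by library totals, 124 and 1 with a ratio of 2 and 8, and 20 with a pseudocount of 0.1. Members that returned in endosperm numbered 6 by library totals, 22 without a level minimum, 7 with a minimum of 20, and 19 and 7 with a ratio of 2 and 8.

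Members higher or lower at a step, in either direction, were by library totals 21 (3 to 4 DAP), 31 (4 to 6), 23 (6 to 8) and 3 (10 to 12). Without a level minimum they were 23, 36 and 28 for the first 3 of these and 5 from 8 to 10 DAP, and with a minimum of 20 they were 8 from 2 to 3 DAP and 4 from 6 to 8 DAP. With a ratio of 2 they were 35 (2 to 3), 48 (3 to 4), 46 (4 to 6), 26 (6 to 8) and 10 (10 to 12), and with a ratio of 8 they were 7 (2 to 3), 10 (4 to 6), 8 (6 to 8), 0 (8 to 10) and 0 (10 to 12). A pseudocount of 0.1 gave 3 from 10 to 12 DAP. With a ratio of 2, 2 members differed between the technical replicates. Of 34 members named by the rule, 29 met it with DESeq2 size factors, 15 in kernel stages alone, and 27 and 31 on library a and b alone. The cause of these changes was not tested beyond what each setting sets by construction. Settings for promoter motifs and protein lengths were not run. No paired analysis was possible because each stage has 1 biological sample. At 12 DAP, whose TMM factor was 0.156, 3 reads stand for a v of 0.528, against 0.0549 at 6 DAP.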
